A study of Homo sapiens with 21 samples.

Results

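TGF-β signals through a short relay. A ligand such as TGFB1 or TGFB2 brings a type II receptor together with the type I receptor TGFBR1, the receptor kinase phosphorylates SMAD2 and SMAD3, and these enter the nucleus with SMAD4 to switch on target genes. Several of the first targets feed back on the relay, and in epithelial tumors the pathway is known both for restraining growth and for driving matrix production and invasion. Oxy210 was described before this study as a blocker of the step at which TGFBR1 phosphorylates SMAD2 and SMAD3, and the comparisons below ask whether transcripts of the pathway moved in tumors of treated mice.

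The 9 genes described here were chosen by name from that pathway: the ligands TGFB1 and TGFB2, the feedback genes SMAD7, SKIL and SMURF2, the secreted targets TGFBI and CCN2, and the transcription factor genes JUNB and ATF3. They are 9 of the 60651 genes in the counts table, and all 9 were measured above the filter on low counts in every comparison. RNA was sequenced from 21 tumors that grew from A549-Luc2 cells, a line of human lung adenocarcinoma carrying luciferase, under the skin of female athymic nu/nu mice aged 6 to 8 weeks. Treatment began at a mean tumor size of 80 to 100 mm3, and each of the 3 groups had 10 mice and 7 libraries, numbered r1 to r7. Oxy186 and Oxy210, semisynthetic oxysterols, were each given once a day by mouth at 50 mg/kg, and Control mice received the oil, DMSO, ethanol and PEG400 formulation without compound. Nude mice lack mature T cells. The counts hold human genes, so ligand made by mouse cells of the tumor bed was not counted.

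Total counts ran from 13787493 to 17865119 a library. The 10 epithelial and A549 marker genes were above 0 in all 21 libraries, while the human transcripts of COL1A2, VWF, KDR and CD3E, which define fibroblasts, endothelium and T cells, were at 0 in 17, 18, 18 and 16 of the 21. The other 11 of 15 stroma and blood markers were less uniform: LUM had a median of 94.4 CPM (36.1 to 212), LYZ 9.99, PECAM1 2.20 and ACTA2 1.63, and these 4 and CDH5 were at 0 in no library. The 15 summed to 82.6 to 169 CPM in Control, 81.7 to 227 in Oxy186 and 47.3 to 118 in Oxy210, and their part in the results below was not tested. Libraries differed in how their levels followed the GC content of exons: the slope ran from -0.15 to 0.40 log2 units per 10 percentage points of GC in Control, from -0.51 to 0.49 in Oxy186 and from -0.33 to 0.26 in Oxy210. Each difference is therefore also given with an offset for this trend. The offset is fitted over the genes together, so for a single gene it can leave part of the trend or overdo it. Fewer cells with a transcript and less transcript in each cell cannot be told apart in such bulk libraries, and the labels number libraries rather than mice, so p-values measure the spread between libraries.

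Upstream sequence is shown for the 3 genes that varied together most closely, TGFB2, SKIL and TGFBI, so that the letters their promoters hold can be read beside their values. Windows of 250 bases before the RefSeq start (GRCh38.p14) were searched on both strands for the SMAD letters GTCTAGAC, AGCCAGACA and CAGACA, the AP-1 letters TGANTCA and the CRE letters TGACGTCA. CAGACA is contained in AGCCAGACA. Capitals mark a match. The TGFB2 window is chr1:218345086-218345335 on the plus strand, and the TGFBI window is chr5:136028738-136028987 on the plus strand. For SKIL, 28 bases around its match are shown, chr3:170357651-170357678 on the plus strand. These bases lie inside the SKIL gene as GENCODE 44 draws it, which starts at 170357342, so they are upstream of the RefSeq start only.
TGFB2: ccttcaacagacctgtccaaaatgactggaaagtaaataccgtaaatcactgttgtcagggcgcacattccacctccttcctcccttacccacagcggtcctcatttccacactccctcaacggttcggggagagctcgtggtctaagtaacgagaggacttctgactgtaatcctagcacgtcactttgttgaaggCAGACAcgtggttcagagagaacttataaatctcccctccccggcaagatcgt
TGFBI: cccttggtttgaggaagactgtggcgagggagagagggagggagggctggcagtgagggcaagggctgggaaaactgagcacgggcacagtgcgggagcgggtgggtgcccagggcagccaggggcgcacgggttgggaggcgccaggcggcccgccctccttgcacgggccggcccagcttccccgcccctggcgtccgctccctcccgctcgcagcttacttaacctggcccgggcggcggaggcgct
SKIL: gaggactcggTGACGTCAgagggctgtg

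The 9 genes had 12 such windows, 3 for SMAD7, 2 for ATF3 and 1 for each other gene. CAGACA lay in 1 of the 12, that of TGFB2, where it began 53 bases before the start, against 13.6% of 35116 windows of the same length. TGACGTCA lay in 1, that of SKIL, where it began 54 bases before the start, against 1.65% of windows. GTCTAGAC, AGCCAGACA and TGANTCA lay in none of the 12, against 0.182%, 0.231% and 6.57% of windows. The window of TGFB2 was 50.4% G and C, that of TGFBI 72.8% and that of SKIL 78.4%.

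Levels of different genes were compared per length, as RPKM, the counts scaled to the library's total after TMM adjustment and to exon length in kilobases. TGFBI, which encodes a secreted matrix adhesion protein, was the most abundant, with a mean of 77.7 RPKM over the 21 tumors, above 97.8% of the genes tested. JUNB, an AP-1 subunit, followed at 47.6, then CCN2, a matricellular protein gene also called CTGF, at 27.8, SKIL, a SMAD corepressor, at 25.8 and TGFB1 at 11.8. SMURF2, a ubiquitin ligase for SMADs and receptors, stood at 6.59, SMAD7, the inhibitory SMAD, at 3.35, ATF3, a stress-induced partner of SMAD3, at 3.06 and TGFB2 at 1.80, above 34.9% of genes. The order was not firm at every step: CCN2 was above SKIL in 13 of 21 tumors and SMAD7 above ATF3 in 11, whereas SMURF2 was above SMAD7 in 21 of 21. Between the ligands, the TGFB1 transcript exceeded that of TGFB2 in every tumor, by 2.13-fold to 23.7-fold with a median of 5.40.

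**Figure D1:**
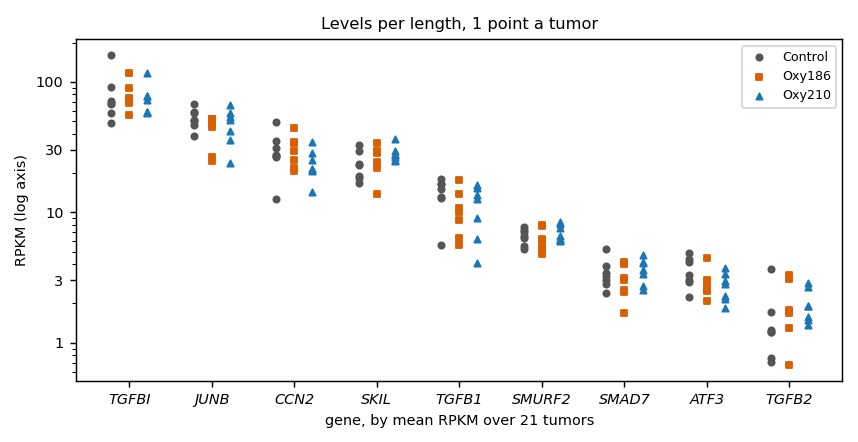
RPKM of each gene (log axis), genes ordered by their mean over the 21 tumors, with 1 point a tumor and the 3 groups side by side. TGFBI had the highest mean (77.7) and TGFB2 the lowest (1.80), and the points of neighbouring genes overlap at each step.

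The ligands were also the most variable of the 9. Values in log2 CPM are the log2 of counts scaled to the same TMM-adjusted total. Their SD within groups was 0.67 for TGFB2 and 0.64 for TGFB1, larger than in 87.6% and 84.7% of genes. For SMURF2 it was 0.24, larger than in 19.5%. TGFB1 lies on chromosome 19, 41301587 to 41353922, minus strand, in GENCODE 44 of GRCh38, and TGFB2 on chromosome 1, 218345336 to 218444619, plus strand. Of the exon bases of TGFB2, 22.7% overlap another gene on the same strand and 11.6% a gene on the opposite strand, and the antisense share was 14.2% for JUNB, 11.9% for CCN2, 6.59% for TGFB1 and 2.50% for SMURF2. The sources used here do not say whether strand was used in counting, or how reads shared by overlapping genes were treated. These counts may therefore include reads of the overlapping genes or lack reads of their own.

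None of the 9 genes was called in any comparison of whole groups, at an adjusted p of at most 0.05 by the quasi-likelihood test of edgeR. Oxy210 against Control called 0 of 16396 genes (0%), Oxy186 against Control 0 of 16291 (0%) and Oxy186 against Oxy210 0 of 16361 (0%). At an unadjusted p under 0.05 stood 2270 (13.8%), 618 (3.79%) and 664 (4.06%) of all genes and 0 of the 9 genes in each. The ranges of the groups overlapped for all 9 genes in all of these comparisons, against 27 (0.165%), 2 (0.0123%) and 11 (0.0672%) genes with no overlap. The first pair of comparisons share the Control tumors. Exact permutation tests of mean log2 CPM, two-sided and not adjusted for the 27 made, gave p from 0.0728 for SKIL in Oxy210 against Control up to 0.912, with 0.000583 the smallest possible.

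TGFB1 in Control tumors ran from 4.21 through a median of 5.62 to 5.88 log2 CPM. Its Oxy186 values were 4.21 at the lowest, 5.04 at the median and 5.84 at the highest. In Oxy210 the ligand spanned 3.75 to 5.73 with a median of 5.37. Of the Control tumors 6 lay within 5.38 to 5.88 and only r7 lay below, while both treated groups were spread from near the lowest to near the highest of these values. The log2 difference was -0.31 ± 0.27 (SE) in Oxy210 and -0.43 ± 0.26 in Oxy186 against Control, that is 0.804-fold (95% interval 0.545 to 1.19) and 0.743-fold (0.508 to 1.09). Exons of TGFB1 are 62.1% G and C, more than in 92.8% of genes. With GC offsets the Oxy186 difference turned to 0.15 and that of Oxy210 shrank to -0.05. The SD of TGFB1 within groups was 0.64 as measured and 0.65 with the GC trend removed, so the removal did not narrow its spread.

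TGFB2 in Control ran from 2.15 through 2.90 to 4.48 log2 CPM. The Oxy186 tumors held 2.07, 3.39 and 4.33 as lowest, median and highest. Oxy210 tumors were closer together, from 3.06 through 3.54 to 4.12. The medians of both treated groups were above that of Control, and the highest value of all belonged to Control r6. The difference from Control was 0.41 ± 0.31 for Oxy210, or 1.33-fold (0.850 to 2.07), and 0.34 ± 0.37 for Oxy186, or 1.27-fold (0.734 to 2.19). Without Control r6 these rose to 0.80 and 0.77, still not called.

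SMAD7 blocks the type I receptor and is induced by SMAD3 itself. Its level was 3.27, 3.70 and 4.39 log2 CPM as lowest, median and highest in Control. In Oxy186 the SMAD7 values were 2.76, 3.61 and 4.05. In Oxy210 they were 3.34, 3.84 and 4.22. The groups lay on top of one another, with differences from Control of 0.08 ± 0.17 for Oxy210 and -0.21 ± 0.22 for Oxy186. The interval for Oxy210 ran from 0.821-fold to 1.36-fold.

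SKIL, the corepressor that SMAD signals both degrade and re-induce, ran from 7.09 through 7.55 to 8.07 log2 CPM in Control. Oxy186 tumors gave 6.82, 7.85 and 8.11 for SKIL. Oxy210 tumors gave 7.66, 7.80 and 8.21. Every Oxy210 tumor was above the Control median, and only Control r6 and r7 reached into the Oxy210 range. The difference was 0.30 ± 0.15, or 1.23-fold (0.985 to 1.53), with an adjusted p of 0.383, the smallest of the 9 genes in that comparison. Its exons are 36.6% G and C, more than in 3.85% of genes, and with GC offsets the difference was 0.18. For Oxy186 it was 0.13 ± 0.19, and 0.02 with GC offsets.

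SMURF2 in Control ran from 5.24 through 5.57 to 5.80 log2 CPM. Under Oxy186 its level was 5.11, 5.45 and 5.85. Under Oxy210 it was 5.44, 5.58 and 5.94. It was the steadiest of the 9 genes, and the differences from Control were 0.12 ± 0.12 for Oxy210 and -0.09 ± 0.15 for Oxy186. The Oxy210 interval of 0.914-fold to 1.30-fold was the narrowest in that comparison.

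TGFBI in Control ran from 8.55 through 9.04 to 10.3 log2 CPM. Its Oxy186 tumors spanned 8.75 to 9.81 with a median of 9.10. Its Oxy210 tumors spanned 8.80 to 9.81 with a median of 9.12. The 3 medians were nearly the same, and Control r6 at 10.3 stood above all other tumors. The differences were -0.10 ± 0.23 for Oxy210 and -0.06 ± 0.24 for Oxy186, and without Control r6 they turned to 0.16 and 0.23.

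CCN2 in Control ran from 4.89 through 6.00 to 6.84 log2 CPM. The Oxy186 range was 5.61 to 6.70 with a median of 6.10. The Oxy210 range was 5.06 to 6.35 with a median of 5.66. Both the lowest and the highest tumor were in Control, and 4 of the 7 Oxy210 tumors lay between 5.61 and 5.87. The difference was -0.31 ± 0.22 for Oxy210, or 0.808-fold (0.587 to 1.11), and -0.01 ± 0.23 for Oxy186. Left out, Control r6 took the Oxy210 difference to -0.14 and Control r2, the lowest, took it to -0.45.

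JUNB in Control ran from 6.15 through 6.55 to 6.95 log2 CPM. In Oxy186 it ran from 5.51 through 6.42 to 6.58. In Oxy210 it ran from 5.45 through 6.55 to 6.92. Oxy186 r3 and r4 and Oxy210 r5 lay between 5.45 and 5.61, apart from the other 18 tumors, and these libraries had the 3 lowest GC slopes, from -0.51 to -0.33. JUNB exons are 64.9% G and C, more than in 97.2% of genes. The difference was -0.15 ± 0.17 for Oxy210 and -0.32 ± 0.19 for Oxy186, and GC offsets turned them to 0.09 and 0.28. With the trend removed, JUNB was 5.49 in Oxy186 r6, 5.58 in Control r1 and 5.92 in Control r3, the libraries of highest slope. It was then 6.79 and 6.66 in Oxy186 r3 and r4 and 5.99 in Oxy210 r5. Its SD within groups was 0.42 as measured and 0.45 with the trend removed, so the removal did not narrow its spread. Whether trend is left in these values was not tested.

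ATF3 in Control ran from 3.19 through 3.74 to 4.28 log2 CPM. Its Oxy186 tumors lay between 3.08 and 4.17 with a median of 3.41. Its Oxy210 tumors lay between 2.91 and 3.90 with a median of 3.52. Control r2, r4 and r5 were above every Oxy210 tumor. The difference was -0.35 ± 0.19 for Oxy210, or 0.787-fold (0.598 to 1.04), and -0.32 ± 0.20 for Oxy186, or 0.803-fold (0.601 to 1.07). It moved little with GC offsets, to -0.31 and -0.27, and leaving out any 1 library kept the Oxy210 difference between -0.45 and -0.25.

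**Figure D2:**
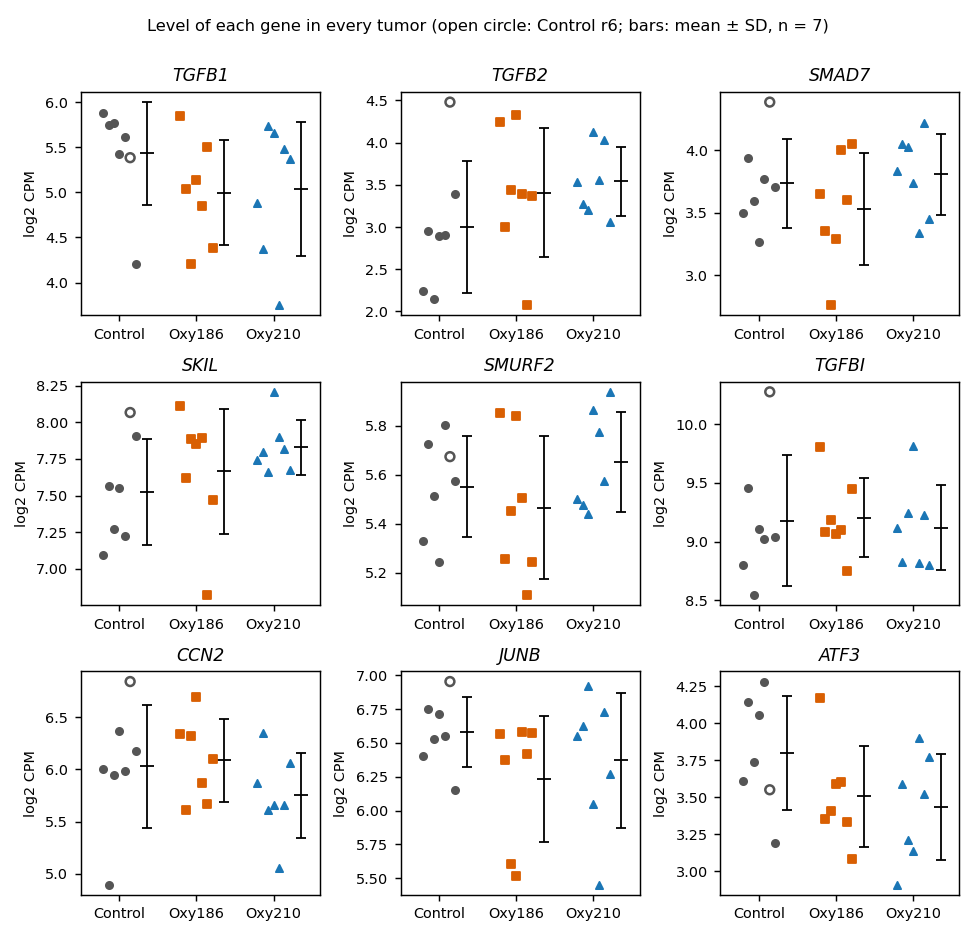
log2 CPM of each gene (vertical axes) in every tumor by group, with replicates r1 to r7 from left to right, the open circle marking Control r6, and bars for the mean ± SD of 7 tumors. The groups overlap in all 9 panels, and Control r6 is the highest tumor for TGFB2, SMAD7, TGFBI, CCN2 and JUNB.

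The compounds were compared with each other at the same dose of 50 mg/kg, for 9 genes in 1 pair of compounds with p-values adjusted over all 16361 genes tested. CCN2 had the largest difference, 0.33 ± 0.19 higher in Oxy186 than in Oxy210, or 1.25-fold (0.948 to 1.66), with an adjusted p of 1.00 after rounding. SMAD7 stood at -0.26 ± 0.20, SMURF2 at -0.19 ± 0.14, JUNB at -0.15 ± 0.22 and SKIL at -0.14 ± 0.16. The ligands differed by -0.09 ± 0.29 for TGFB1 and -0.04 ± 0.29 for TGFB2, the target TGFBI by 0.07 ± 0.18 and ATF3 by 0.06 ± 0.19. The widest interval on the log2 scale was that of TGFB1, from 0.612-fold to 1.45-fold, and that of CCN2 reached highest, to 1.66-fold. For each gene the compounds cannot be told apart within its own interval. A p above the threshold does not show that they act alike.

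Tumors r1 to r4 of Oxy186 were analysed apart from r5 to r7 in the published work, and were picked by how these same libraries separate, so what follows is a description of that choice and not independent evidence. Against the 7 Control tumors, 3323 of 16852 genes were called (19.7%), 797 higher (4.73%) and 2526 lower (15%), and 0 of the 9 genes. SMAD7 in r1 to r4 spanned 2.76 to 3.65 log2 CPM against 3.61 to 4.05 in r5 to r7, and its difference from Control was -0.49 ± 0.22 with an adjusted p of 0.130. JUNB spanned 5.51 to 6.57 against 6.42 to 6.58, and its difference was -0.51 ± 0.20 with an adjusted p of 0.0874. These 2 genes were at an unadjusted p under 0.05, against 34.7% of all genes. TGFB2 spanned 3.01 to 4.33 against 2.07 to 3.39, with a difference from Control of 0.66 ± 0.38 and an adjusted p of 0.238. Among the remaining 6 genes the difference ran from -0.34 ± 0.29 for TGFB1 to 0.31 ± 0.18 for SKIL.

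Which tumors were in the comparison mattered for 2 of these genes. Without Control r6, TGFB2 was called at 1.05 with an adjusted p of 0.0189. Without Oxy186 r1, JUNB was called at -0.71 with an adjusted p of 0.0300. All of r1 to r4 had negative GC slopes, from -0.51 to -0.18. With GC offsets the calls over all genes fell to 683, 302 higher and 381 lower, so that the lower share went from 76% to 55.8%. Of the members, TGFB1 turned to 0.59, JUNB to 0.60 and SMURF2 to -0.18, SMAD7 shrank to -0.11, and none of the 9 was called.

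**Figure D3:**
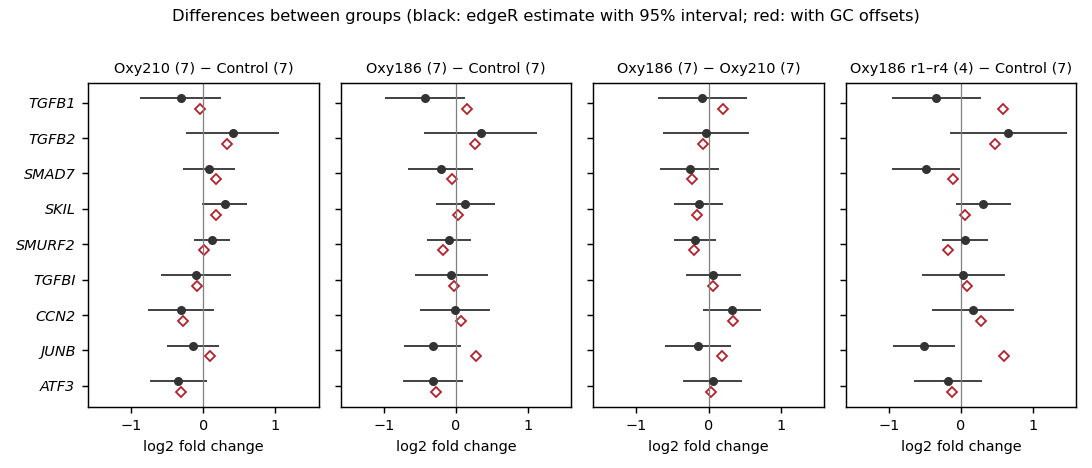
log2 fold change of each gene in the 4 comparisons, with the edgeR estimate and its 95% interval in black and the estimate with GC offsets as an open red diamond. The 9 intervals include 0 in each comparison of whole groups, and the diamonds of TGFB1 and JUNB lie on the other side of 0 from the black points in the 3 panels that hold Oxy186.

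Over the 21 tumors, some of the genes rose and fell together although none was called between whole groups. Of the 36 pairs, 4 were correlated at an adjusted p of at most 0.05 by permutation of 100000 orders, and all 4 were positive. The share among pairs of all genes was not computed, so the 4 pairs are not set apart from other genes. TGFB2 and SKIL were the closest pair, with Pearson's r = 0.88 and Spearman's rho = 0.88, adjusted p = 0.00036 for each, which is the smallest these permutations can give. With the 2 tumors most distant from the TGFB2 median left out, r was 0.84. TGFB2 and TGFBI gave r = 0.72 (adjusted permutation p = 0.003) and rho = 0.60 (adjusted permutation p = 0.0553), with r = 0.64 without the 2 farthest tumors. SKIL and TGFBI gave r = 0.59 (adjusted permutation p = 0.0462) and rho = 0.51 (adjusted permutation p = 0.125), with r = 0.55 without the 2 farthest. SMAD7 and JUNB gave r = 0.73 (adjusted permutation p = 0.00216) and rho = 0.72 (adjusted permutation p = 0.00522), with r = 0.60 without the 2 farthest.

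The SMAD7 and JUNB relation was also read among the 18 tumors outside the group of 3 with low JUNB, where r was 0.55 (permutation p = 0.0185, a choice made after the values were seen). With the GC trend removed these 18 tumors gave r = 0.65 (permutation p = 0.00363) and rho = 0.48. All 21 tumors then gave r = 0.51 (adjusted permutation p = 0.0659) and did not pass. The tumors left out were picked on values as measured. With the trend removed, Oxy186 r3 and r4 were at 6.79 and 6.66 log2 CPM of JUNB, above the Control mean of 6.28. The value for the 18 tumors is therefore not read as support for the pair. As measured, TGFB1 passed with none of the other 8 genes. Its closest was JUNB at r = 0.52 (adjusted permutation p = 0.0735), and against TGFB2 it gave r = -0.19 (adjusted permutation p = 0.681). CCN2 and ATF3 were likewise in no pair that passed. With the GC trend removed, TGFB1 and SMURF2 passed in ranks (rho = 0.55, adjusted permutation p = 0.0473). By Pearson's r that pair did not pass (r = 0.41, adjusted permutation p = 0.159). The pairs were taken over all tumors, and with the group means removed the same 4 pairs passed, together with SMURF2 against TGFB2 (r = 0.59) and against SKIL (r = 0.56). With the GC trend removed these SMURF2 pairs fell to r = 0.19 and 0.15 and did not pass.

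Library GC slope moved with 4 of these genes. The slope was itself computed from the levels of the tested genes against their exon GC content. The share of all genes that move with it was not computed, so the 4 are not set apart from other genes. TGFB2 gave r = -0.68 with the slope, SKIL r = -0.72, SMURF2 r = -0.56 and JUNB r = 0.67, with adjusted permutation p of 0.00273, 0.0027, 0.0211 and 0.00273 over the 9 relations. TGFBI gave r = -0.24 (adjusted permutation p = 0.374) and SMAD7 r = 0.42 (adjusted permutation p = 0.0876, and r = 0.09 without the 2 most extreme slopes). In ranks JUNB gave rho = 0.47 (adjusted permutation p = 0.0699), and without the 2 libraries of the most extreme slope r = 0.45. With the GC trend taken out of every library, 8 pairs passed, all positive. TGFB2 then gave r = 0.81 with TGFBI, 0.76 with SMAD7, 0.74 with SKIL and 0.67 with JUNB. SMAD7 and JUNB fell to 0.51 (adjusted permutation p = 0.0659). TGFB2 gave rho = 0.73 with TGFBI, 0.70 with SMAD7 and 0.76 with SKIL in ranks (adjusted permutation p 0.00576, 0.00585 and 0.00324). With JUNB its rho was 0.42 (adjusted permutation p = 0.187), and as measured that pair had r = -0.17. Whether trend left by the removal enters these relations was not tested. The relations of TGFB2 with SKIL and with TGFBI and that of SKIL with TGFBI were among the pairs that passed both with and without the trend.

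**Figure D4:**
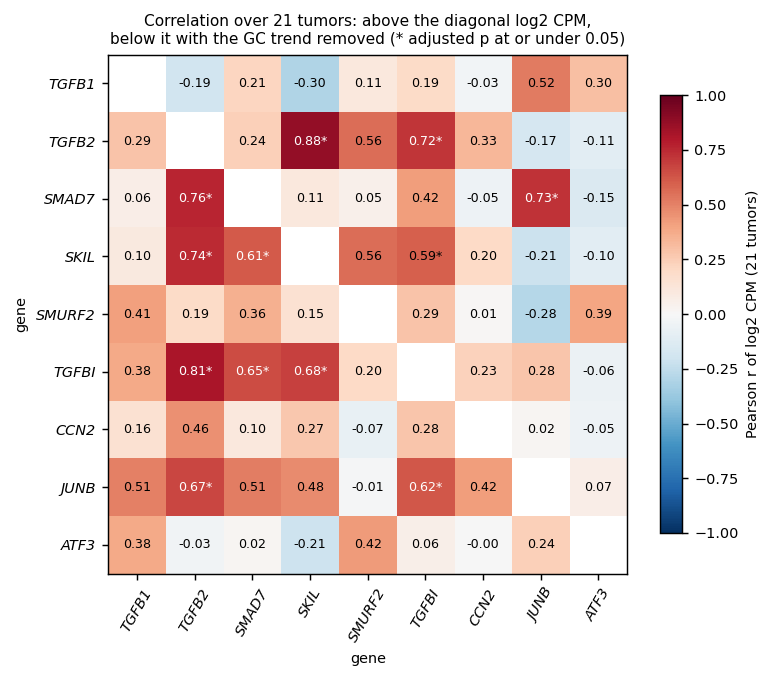
Pearson's r of log2 CPM over 21 tumors for the 36 pairs of genes (color scale from -1 to 1), above the diagonal as measured and below it with the GC trend removed, with an asterisk at an adjusted permutation p of at most 0.05. The asterisks number 4 above and 8 below the diagonal, and TGFB2, SKIL and TGFBI hold one with each other on both sides.

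**Figure D5:**
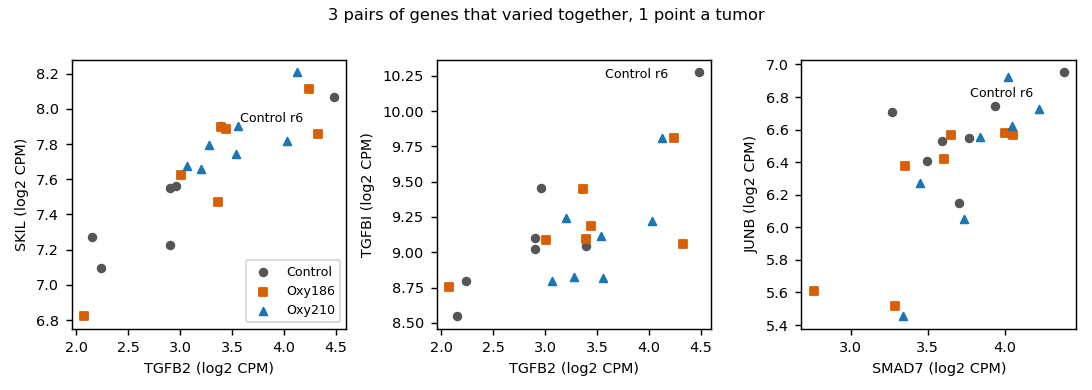
log2 CPM of SKIL and of TGFBI against TGFB2, and of JUNB against SMAD7, with 1 point a tumor and the groups by color and marker. Control r6 is the tumor highest in TGFB2, TGFBI, SMAD7 and JUNB, and the 3 tumors at the foot of the right panel are Oxy186 r3 and r4 and Oxy210 r5.

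Among 13602 genes with a mean of at least 1 log2 CPM, those most like each member over the 21 tumors were named by the highest r, as a description. TGFB2 was closest to LTBP1, which encodes a latent TGF-β binding protein, at r = 0.92, and to KDM1B at 0.91. TGFB1 was closest to EHD2 at 0.88 and ADAMTSL5 at 0.82, and SMAD7 to ADCY7 at 0.86 and PDGFB at 0.83. SKIL was closest to NCOA7 at 0.92 and REST at 0.92, and SMURF2 to PSD3 at 0.88 and PPFIBP1 at 0.88. TGFBI was closest to the metalloprotease gene ADAM19 at 0.87 and to CCDC80 at 0.87, CCN2 to TSPAN12 at 0.75 and RNF144A at 0.73. JUNB was closest to BCL3 at 0.91 and CEBPB at 0.90, and ATF3 to LOX, the collagen crosslinking enzyme, at 0.82 and FOSB at 0.77. With the GC trend removed the values for LTBP1 and ADAM19 were 0.92 and 0.89, while those of BCL3 and CEBPB dropped to 0.59 and 0.67.

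Control r6 stood out for the members as a set, and was looked at after its values were seen, so no test is given. It was the highest of the 21 tumors for 5 of the 9 genes, against 4.04% of all genes tested, and among the 3 highest for 6, against 11.4%. Its TGFBI was 1.18 log2 units above the median of the other 20 tumors, TGFB2 1.16, CCN2 0.88, SMAD7 0.71, JUNB 0.41 and SKIL 0.36. TGFB1 and ATF3 were at -0.01 and -0.04. Its GC slope was 0.02 and its total was 14710738 counts, both inside the range of the other Control libraries, and with the GC trend removed the differences of TGFBI and TGFB2 were 1.19 and 1.18. TGFB2, SMAD7, TGFBI and CCN2 were then still highest in this library, and JUNB was 4th of the 21. All 20 other tumors together spanned 2.07 to 4.33 for TGFB2 and 8.55 to 9.81 for TGFBI. Removing it left 3 of the 36 pairs past the adjusted threshold, TGFB2 with SKIL (r = 0.87), TGFB2 with TGFBI (r = 0.65) and SMAD7 with JUNB (r = 0.69).

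The rest of the pathway was read from lists of other ligands and latent ligand handling, receptors, SMADs and partners, turnover regulators and other target genes, beside the BMP branch, immediate early genes and ATF4 stress genes. No gene of the 10 lists was called in a comparison of whole groups. In Oxy210 against Control the 9 genes had a median difference of -0.10 with 5 below 0, against a median of 0.01 and 48.7% below 0 over all genes, and with GC offsets 0.01 with 4 below. The other target genes had a median of -0.05 with 16 of 28 below 0. For the 17 ligand and ligand-handling genes it was -0.06 with 11 below. The 14 turnover genes had 0.10 with 5 below and the 10 SMADs and partners 0.12 with 1 below. The 7 receptors had 0.02 with 2 below and the 16 BMP genes 0.12 with 6 below. The immediate early genes, the class to which JUNB and ATF3 also belong, had a median of -0.35 with 12 of 14 below 0, and the ATF4 stress genes -0.32 with 11 of 12 below. With GC offsets those medians were -0.17 and -0.18.

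The genes with the smallest p in Oxy210 against Control are given by list. For ligands and ligand handling they were LTBP4 at -0.73 ± 0.17 and DCN, whose product binds TGF-β, at -1.27 ± 0.32. For receptors they were ACVR2B at 0.21 ± 0.12 and TGFBR1, the proposed point of action of Oxy210, at 0.27 ± 0.18. For partners they were EP300 at 0.22 ± 0.12 and SP1 at 0.19 ± 0.10, and for turnover LDLRAD4 at 0.69 ± 0.21 and USP4 at 0.29 ± 0.10. Among targets stood MMP9 at -1.01 ± 0.29 and SPHK1 at -0.56 ± 0.21, and in the BMP branch BMP6 at 0.45 ± 0.13 and SMAD1 at 0.23 ± 0.11. FOSL1 at -0.77 ± 0.21 and KLF2 at -0.83 ± 0.25 led the immediate early genes, TRIB3 at -0.86 ± 0.18 and SHMT2 at -0.37 ± 0.12 the ATF4 genes. Marker genes gave KRT19 at -0.78 ± 0.21 and KRT18 at -0.26 ± 0.14 for epithelium, and LYZ at -0.90 ± 0.29 and LUM at -0.50 ± 0.21 for stroma and blood, 5 of whose 15 genes could be tested. Adjusted p for these 20 genes ran from 0.204 upward. The values above are without GC offsets. With them LTBP4 shrank to -0.44 and SPHK1 to -0.32, while DCN went to -1.42 and BMP6 to 0.55.

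In Oxy186 against Control the 9 genes had a median of -0.09 with 7 below 0, against -0.01 and 51.1% over all genes, and with GC offsets 0.02 with 4 below. The leading genes were GDF15 at -1.17 ± 0.36 and LTBP4 at -0.81 ± 0.35 for ligands and ligand handling. They were ENG at -0.42 ± 0.39 and TGFBR1 at 0.10 ± 0.20 for receptors, and TGIF2 at -0.26 ± 0.19 and SKI at -0.24 ± 0.20 for partners. They were LDLRAD4 at 0.56 ± 0.30 and ZFYVE9 at 0.21 ± 0.16 for turnover, the cell cycle inhibitor CDKN1A at -0.66 ± 0.22 and MMP9 at -0.95 ± 0.32 for targets, and BMP6 at 0.34 ± 0.18 and ID1 at -0.37 ± 0.21 for BMP. Immediate early genes had a median of -0.50 with 13 of 14 below 0, led by EGR1 at -1.23 ± 0.51 and FOSL1 at -0.64 ± 0.27, and ATF4 genes -0.26 with 11 of 12 below, led by TRIB3 at -0.53 ± 0.22 and PPP1R15A at -0.34 ± 0.18. With GC offsets these medians were -0.18 and -0.11. The same offsets turned SKI to 0.18 and shrank ENG to -0.15 and ID1 to -0.08, while LDLRAD4 and BMP6 went to 0.58 and 0.54. For the markers the leading genes were KRT19 at -0.24 ± 0.23, KRT18 at 0.17 ± 0.16, LYZ at -0.49 ± 0.30 and ACTA2 at -0.16 ± 0.26.

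Between the compounds the leading genes of the lists were small in difference. They were INHBB at 0.49 ± 0.38 and DCN at 0.47 ± 0.45 for ligands and ligand handling. For receptors they were TGFBR3 at 0.32 ± 0.22 and ACVR2B at -0.17 ± 0.14. Partners were led by TGIF2 at -0.28 ± 0.19 and SKI at -0.27 ± 0.19, and turnover by STRAP at 0.33 ± 0.16 and BAMBI at 0.32 ± 0.15. Targets were led by CDKN1A at -0.34 ± 0.22 and COL1A1 at -0.38 ± 0.26, BMP genes by SMAD5 at -0.20 ± 0.15 and ID3 at -0.39 ± 0.28, immediate early genes by NR4A1 at -0.56 ± 0.34 and IER3 at 0.33 ± 0.21, and ATF4 genes by ATF4 at 0.32 ± 0.13 and TRIB3 at 0.36 ± 0.19. KRT19 at 0.56 ± 0.20 and KRT18 at 0.45 ± 0.17, LUM at 0.51 ± 0.29 and LYZ at 0.43 ± 0.25 led the markers.

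In the r1 to r4 comparison the other lists held 29 called genes of 134 tested (21.6%, beside 19.7% of all genes), 24 lower and 5 higher, and the 9 members held 0. Ligand and ligand-handling genes gave 5 lower of 17, led by FSTL3 at -1.51 ± 0.18 and LTBP4 at -1.77 ± 0.23. Targets gave 7 lower and 2 higher of 28, led by CDKN1A at -1.15 ± 0.17 and SPHK1 at -1.74 ± 0.33. Immediate early genes gave 5 lower of 14, led by NR4A1 at -1.49 ± 0.33 and KLF2 at -1.51 ± 0.36, and ATF4 genes 4 of 12, led by DDIT4 at -1.18 ± 0.26 and CHAC1 at -1.49 ± 0.40. The remaining calls were ENG at -1.35 ± 0.35, TGIF2 at -0.56 ± 0.17, SMAD6 at -0.60 ± 0.15, and, higher, WWP1 at 0.42 ± 0.12, LDLRAD4 at 0.71 ± 0.22 and BMPR1A at 0.42 ± 0.14. Genes with the smallest p that were not called were ACVR2A at 0.23 ± 0.18, SKI at -0.44 ± 0.22, the epithelial markers KRT8 at -0.44 ± 0.21 and EPCAM at 0.36 ± 0.19, and the stromal markers CDH5 at -1.48 ± 0.63 and PDGFRA at 0.80 ± 0.41. With GC offsets 5 of the 134 list genes were called, beside 683 of the 16852 genes tested, so they are not set apart from other genes. LTBP4 and CDKN1A were the 2 called in the same direction both ways. JUND was called lower without the offsets and higher with them, and IER3 and BMP6 were called higher with them alone.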

How the data were processed

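The authors trimmed reads with Trimmomatic 0.39, aligned them with STAR 2.7.6a to the human GRCh38.p13 and mouse GRCm39 genomes together and counted reads per gene with featureCounts of Subread 2.0.1, as stated in the submitters' processing notes and the methods. The deposited raw counts of human genes were used here, and the log2 CPM deposited by the authors served to check the scaling, which was matched to within 4.97e-14. Low counts were removed with filterByExpr and libraries scaled by TMM. Differences were tested with the quasi-likelihood test of edgeR 4.0.16 in R 4.3.3 with Benjamini-Hochberg adjustment over all genes, and limma 3.58.1 and DESeq2 1.42.0 were alternatives. log2 CPM used a prior count of 2. GC offsets came from a spline with 4 degrees of freedom per library on exon GC content (GENCODE 44), known for 99.8% of genes. Outside the 9 genes, list genes with the 2 smallest p per comparison were named, and for each member the 2 genes of highest r. The members and lists were chosen with earlier results of these data known. The test was checked on simulated data. No pair of libraries in a group agreed within counting noise, with the smallest chi-square per degree of freedom at 12.1. Of the list genes, 1 is not reported here by name.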

Additional observations from a re-analysis of the deposited data

Results flagged for a closer look

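TGFB1 in Control r7 was 4.21 log2 CPM, while the other 6 Control tumors lay between 5.38 and 5.88. The gap to the nearest tumor was 0.704 of the whole range of the group, above Dixon's 95% critical value for 7 values. This was the only one of 27 sets (9 genes in 3 groups) past that value, where chance alone would give about 1.35. Without Control r7 the TGFB1 difference was -0.45 in Oxy210 against Control, which was not called.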

How the results depend on the processing

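No member was called in a whole-group comparison under any of the 24 alternatives of each. Counts over all genes were 92 by DESeq2, 11 with no filter and 2 with the replicate block in Oxy210 against Control, and 7 by DESeq2 and 1 each with no filter, with all 21 tumors in one fit, with GC offsets and with GC offsets and block in Oxy186 against Oxy210. In the r1 to r4 comparison they were 1406 with a fold change over 2 as well, 683 with GC offsets, 68 with GC offsets and block, and 1835 (without Oxy186 r4) to 3957 (without Control r7) on leaving out a library, with 1875 without Oxy186 r3. There the block called TGFB2 alone (1.21, adjusted p = 0.0266), and leaving out a library called 0 to 1 members. Pairs past the threshold numbered 8 with the GC trend removed.

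Of 837 fold changes of members under an alternative, 775 kept direction and side of the threshold, 59 turned direction, none of them called, and 3 became called. Adding GC offsets turned JUNB (0.092) in Oxy210 against Control, TGFB1 (0.15), CCN2 (0.067) and JUNB (0.28) in Oxy186 against Control, TGFB1 (0.20) and JUNB (0.19) between the compounds, and TGFB1 (0.59), JUNB (0.60) and SMURF2 (-0.18) for r1 to r4. With the block added the GC values were JUNB 0.11, then TGFB1 0.0022, TGFBI 0.064, CCN2 0.11 and JUNB 0.25, then TGFB1 0.14 and JUNB 0.14, and TGFB1 0.44, SMAD7 0.19, JUNB 0.81 and SMURF2 -0.16. CCN2 in Oxy186 against Control, near 0, turned to 0.038 by limma voom, 0.0137 by DESeq2, 0.0138 by RLE, 0.038 by library size alone, 0.0065 with 10 counts in every library, 0.0079 with all tumors and 0.045 with the block, and TGFBI to 0.0066 by limma voom and 0.022 with the block.

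On leaving out a library, the Oxy210 against Control range was -0.26 to 0.16 for TGFBI and -0.0085 to 0.21 for SMAD7. In Oxy186 against Control it was -0.17 to 0.23 for TGFBI and -0.12 to 0.18 for CCN2. Between the compounds it was -0.29 to 0.037 for TGFB1, -0.22 to 0.11 for TGFB2, -0.080 to 0.21 for TGFBI and -0.11 to 0.16 for ATF3. For r1 to r4 it was -0.17 to 0.29 for TGFBI, -0.030 to 0.16 for SMURF2, 0.49 to 1.05 for TGFB2 and -0.71 to -0.32 for JUNB. The cause of these turns was not tested.

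The labels number the libraries and state no pairing. Deviations of same-numbered libraries correlated from -0.40 to 0.33, above 0.1 in 4 of 21 pairs, 3 of them between Control and Oxy210. Whether a number marks a shared batch was not tested. The 54 mean levels with another prior count or scaling moved by less than 1 SD.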

Other observations

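The high values of Control r6 extended to genes of the pathway outside the 9, listed here as values chosen after they were seen and with no test. Of 28 other TGF-β target genes, 7 were at their highest of the 21 tumors in that library and for 16 it was among the 3 highest tumors, against 4.04% and 11.4% of all genes. Among the 7 were COL1A1, COL4A1, KLF10, MMP2, ADAM19 and SPHK1. ADAM19 was 1.56 log2 units above the median of the other 20 tumors, COL4A1 1.37, MMP2 1.34, SPHK1 1.28, COL1A1 0.84 and KLF10 0.54. Of 17 ligand and ligand-handling genes, LTBP1, LTBP2, THBS1 and FST were highest there, by 0.79, 0.88, 0.83 and 0.85. No receptor, turnover, ATF4 stress or epithelial marker gene was highest in that library, and the median difference was 0.46 for the target genes, 0.04 for receptors and -0.05 for epithelial markers. High values were not confined to ligands and targets. Of 16 BMP genes, BMP2 and ID3 were highest there, by 1.53 and 1.21, with a list median of 0.09. So were NR4A1 of 14 immediate early genes, by 0.90, and TGIF1 of 10 SMADs and partners, by 0.37. The receptor gene TGFBR2 and the ATF4 stress gene DDIT3 were at their lowest of the 21 tumors, at -0.52 and -1.03. The 6 tested stroma and blood markers went both ways: LUM and PDGFRA were 0.77 and 1.17 above the median of the other tumors, each the 2nd highest of 21, and ACTA2, PECAM1, CDH5 and LYZ were at -0.34, -0.76, -0.73 and -1.15. DCN, a ligand-binding proteoglycan of fibroblasts, was 1.23 above, the 3rd highest. The part of these markers in the values above was not tested.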
